A study of Homo sapiens with 2 samples.

Results

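The miRNAs described are the guide strands of the miR-130, miR-301 and miR-454 seed family, hsa-miR-130a, hsa-miR-130b, hsa-miR-301a, hsa-miR-301b and hsa-miR-454. They were taken by name from the array's table of signals, where they are 5 of 1329 probes and 5 of the 510 mature miRNAs with a signal on both arrays. The RNA came from MKN1, an established human gastric cancer cell line, kept for 24 h under normoxia (20% O2) or hypoxia (1% O2), and the arrays were used to compare miRNA expression between these conditions. Total RNA, labeled with biotin at its 5′ ends, was read on GenoSensor human miRNA arrays, 1 for each condition, so no comparison could be tested and precision is limited by this number. The labels give no other treatment, and all values describe 1 cell line. In RNA of a whole culture, a change in every cell and a change in the share of cells cannot be told apart.

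miRNAs pair with messenger RNAs mainly through their seed, bases 2 to 8 from the 5′ end, and reduce the translation and stability of the messages they bind. Members of a seed family therefore share most predicted targets. For this family, reported targets include components of TGF-beta signaling and, for miR-130a in endothelial cells, the antiangiogenic homeobox genes GAX and HOXA5. A miRNA hairpin gives a guide strand, which is loaded for silencing, and a passenger strand, named with a star on this array, which is mostly degraded.

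The mature sequences show what the members share and where they differ, and the seed is in capitals. They were taken from RefSeq (GRCh38.p14), which held the mature guide strand for 4 of the 5 members.
hsa-miR-130b: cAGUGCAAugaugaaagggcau
hsa-miR-301a: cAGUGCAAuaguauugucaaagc
hsa-miR-301b: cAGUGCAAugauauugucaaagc
hsa-miR-454: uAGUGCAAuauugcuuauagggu

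All 4 carry the seed AGUGCAA, whose pairing site in a message reads UUGCACU. hsa-miR-301a and hsa-miR-301b were identical at 21 of 23 positions and differ, counted from the 5′ end, by A10G and G11A (base of hsa-miR-301a first). An array probe may not fully separate strands this close, and the signals of this pair are uncertain to that extent. The guide of hsa-miR-130a was not among these sequences, so its likeness to hsa-miR-130b was not counted. The same limit may hold for the signals of hsa-miR-130a and hsa-miR-130b. hsa-miR-130b matched hsa-miR-301b over its first 12 bases and at 13 of 22 positions in all. hsa-miR-454, which starts with another base, was identical to hsa-miR-130b at 10 of 22 positions and to hsa-miR-301a at 13 of 23, and hsa-miR-130b was identical to hsa-miR-301a at 11 of 22. In RefSeq, 2 later annotated miRNAs, miR-3666 and miR-4295, have the same seed, and the array had no probe named for them.

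The genes form 3 loci. hsa-miR-301a (chr17:59151149-59151171, minus strand) and hsa-miR-454 (chr17:59137787-59137809, minus strand) lie 13339 bases apart within SKA2, a protein-coding gene of the same strand whose product acts at the spindle and kinetochore. hsa-miR-301b (chr22:21653025-21653047, plus strand) and hsa-miR-130b (chr22:21653354-21653375, plus strand) are separated by 306 bases within the pseudogene LOC107985532. The hsa-miR-130a gene lies on chromosome 11 within the noncoding host gene MIR130AHG. The core of the hypoxia response element, ACGTG or GCGTG on either strand, had 1 match in the promoter window of MIR130AHG and 0 in that of SKA2 (250 bases before to 50 after the start). Of 35116 such windows, 48.4% held a match. No window was examined for the chromosome 22 locus.

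Signals are linear intensities as normalized by the authors. They start at 20, and the remaining probes stand at 0, the meaning of which is not stated. Across the array, 665 probes had a signal under normoxia and 837 under hypoxia, with 663 under both, and the signals summed to 1149819 and 1001867. The median log2 fold change of hypoxia over normoxia was 0.14 for these 663 probes, and probes with low signals tended to be higher under hypoxia and those with high signals lower. The signal of miR-210, the miRNA best known for its response to low oxygen, went from 383 to 2219. The 7 epithelial miRNAs of the miR-200 family with miR-203 and miR-205 all had signals, from 87.7 to 1203. Signals were also listed for markers of other tissues, at up to 921 for blood (3 of 5 on both arrays, with miR-451 at 0 on both), up to 1720 for the liver miRNA miR-122 and up to 442 for muscle (4 of 4), so these probes did not set the line apart from those tissues. The blood miRNA miR-144 stood at 0 under normoxia and 22.7 under hypoxia, and the neuronal miRNA miR-124 at 0 and 31.3. The 3 blood miRNAs with both signals were lower under hypoxia, with log2 fold changes from -0.69 to -0.57, in the range of hsa-miR-301a and hsa-miR-301b. The 4 muscle miRNAs were higher (median 0.83), although 3 of 4 relative to the trend or with quantile-normalized signals, and miR-122 was higher too (0.55), as was hsa-miR-130a. Any part of these shifts in the values of the family was not tested.

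Under hypoxia, the members differed in direction. hsa-miR-130a was higher, hsa-miR-130b differed little, and hsa-miR-301a, hsa-miR-301b and hsa-miR-454 were lower. No member passed 2-fold in either direction, against 11.8% of the 663 probes. Lower by any size were 4 of 5 members, against 43.6% of the probes, and lower by over 1.5-fold were 2 of 5, against 12.5%. The median log2 fold change of the 5 members was -0.43. With 5 members and 1 array per condition, these shares are a description of the 2 arrays.

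The signal of hsa-miR-130a, described as proangiogenic in endothelial cells, was 3174 under normoxia and 4013 under hypoxia, which is 1.26-fold higher or 0.34 on the log2 scale. It was the only member with the higher signal under hypoxia on the authors' scaling, and it stayed higher in every alternative tried (0.20 to 0.54). Of the 510 mature miRNAs, 65.3% had a lower log2 fold change than hsa-miR-130a, which placed it well inside the range of the array. Its signal was among the bright ones, above 84.3% of these miRNAs under normoxia and 89.2% under hypoxia.

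hsa-miR-130b, reported to be raised in several cancers, had 4492 under normoxia and 4088 under hypoxia (0.910-fold, log2 fold change -0.14). This difference was the smallest in the family on the authors' scaling, whereas after median centring that of hsa-miR-130a (0.20) was smaller than that of hsa-miR-130b (-0.27). The direction of hsa-miR-130b was not stable, since it was 0.063 after scaling on the total signal, 0.029 after quantile normalization and 0.096 relative to the lowess trend of all probes.

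hsa-miR-301a, encoded in SKA2, had 952 under normoxia and 562 under hypoxia and was 1.69-fold lower (log2 fold change -0.76). hsa-miR-301b had 827 and 616 and was 1.34-fold lower (-0.43). Both lay on the same side, and their log2 fold changes differed by 0.33, the only difference between the sequences being at positions 10 and 11. Of the 510 mature miRNAs, 40 had a lower log2 fold change than hsa-miR-301a and 109 a lower one than hsa-miR-301b.

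hsa-miR-454, the dimmest member, had 338 under normoxia and 182 under hypoxia and was 1.85-fold lower (-0.89). This was the largest difference in the family, and 21 of the 510 mature miRNAs (4.12%) had a lower log2 fold change. Its hypoxia signal was below 206.3, the median of the listed signals on that array, whereas the other 4 members were above the median on both arrays. hsa-miR-454 passed 2-fold in 3 of the alternatives, at -1.03 after median centring, -1.08 with quantile normalization and -1.11 relative to the trend. Median centring subtracted the median log2 fold change of all probes with both signals. The log2 fold change of hsa-miR-454 was -0.74 with 50 added to each signal.

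**Figure D1:**
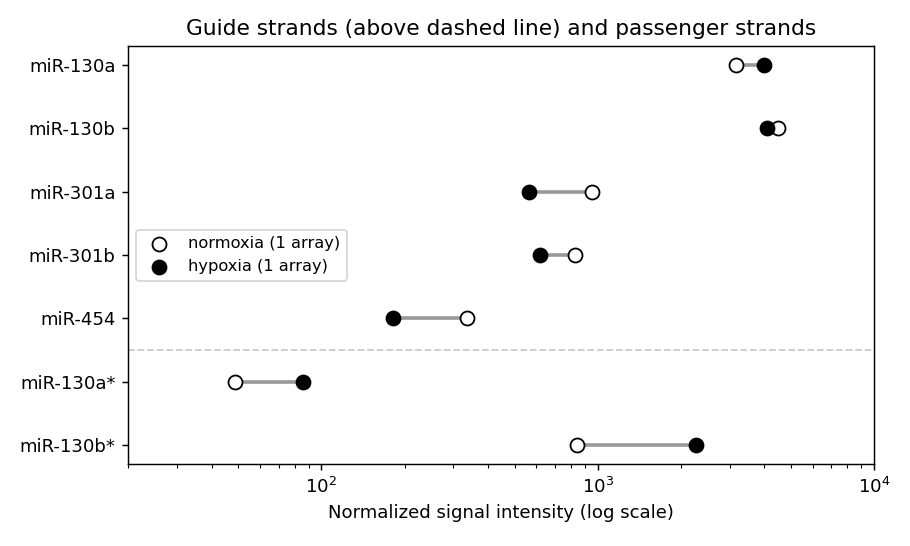
Normalized signal intensity (log axis) of the 5 guide strands and of miR-130a* and miR-130b* under normoxia (open circles) and hypoxia (filled circles), 1 array each, with a line joining the values of a probe. hsa-miR-301a, hsa-miR-301b and hsa-miR-454 lie to the left under hypoxia, hsa-miR-130a and both passenger strands to the right, and the circles of hsa-miR-130b (4492 and 4088) overlap.

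Arranged by locus, the members of SKA2 were the closest, with log2 fold changes of -0.76 for hsa-miR-301a and -0.89 for hsa-miR-454, which are 0.13 apart. The members of chromosome 22 were 0.29 apart, at -0.43 for hsa-miR-301b and -0.14 for hsa-miR-130b. Arranged by name, hsa-miR-130a and hsa-miR-130b were 0.47 apart and hsa-miR-301a and hsa-miR-301b 0.33. These are the gaps as deposited, and their order was not stable. Relative to the trend, the chromosome 22 gap was 0.57 and that of hsa-miR-301a and hsa-miR-301b 0.33. With quantile normalization the same gaps were 0.51 and 0.39. hsa-miR-301a and hsa-miR-454 were further apart than as deposited, at -0.81 and -1.11 relative to the trend and -0.87 and -1.08 with quantile normalization. Whether such gaps exceed the variation between arrays was not tested.

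The order of the 5 log2 fold changes, with hsa-miR-130a highest, then hsa-miR-130b, hsa-miR-301b and hsa-miR-301a, and hsa-miR-454 lowest, was the same in all 9 settings, that is the deposited scaling, the other deposited table, 4 other scalings, removal of the trend and 2 pseudocounts. All of them start from the same 2 arrays. The gap between hsa-miR-130a and hsa-miR-454 was 1.23 on the log2 scale as deposited (2.34-fold), and from 1.07 to 1.64 across the settings. A difference between probes of the same arrays does not depend on a single scaling factor, and the neighbours hsa-miR-130b and hsa-miR-301b were between 0.26 and 0.57 apart.

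**Figure D2:**
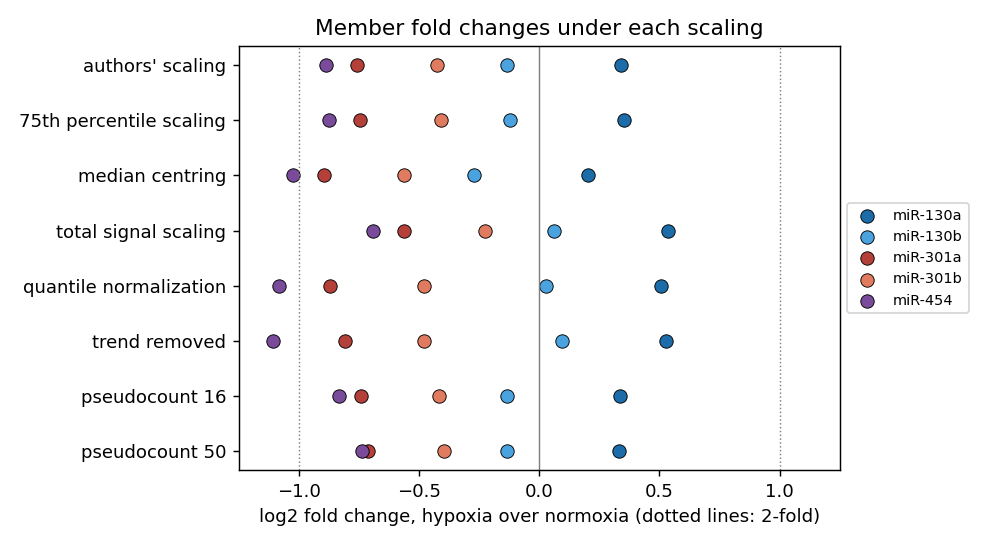
log2 fold change of hypoxia over normoxia (horizontal axis) of each member under the authors' scaling and 7 alternatives (rows), with 2-fold marked by dotted lines. The 5 members keep their order in every row, as they must where a single factor scales an array. hsa-miR-130b lies on either side of 0, and hsa-miR-454 passes 2-fold in 3 rows.

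The signal of a probe bears on how its fold change is read here, because fold change varied with signal over the whole array. At the signal of hsa-miR-130a the lowess trend was -0.19, so that hsa-miR-130a lay 0.53 above probes of like signal. hsa-miR-130b lay 0.096 above its trend value of -0.23. hsa-miR-301a and hsa-miR-301b, of middle signal, lay 0.81 and 0.48 below trend values of 0.050 and 0.053. hsa-miR-454 lay furthest from the trend, 1.11 below a value of 0.22. The dimmest member was thus the lowest and the bright members were the highest, which is the reverse of the trend over all probes.

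**Figure D3:**
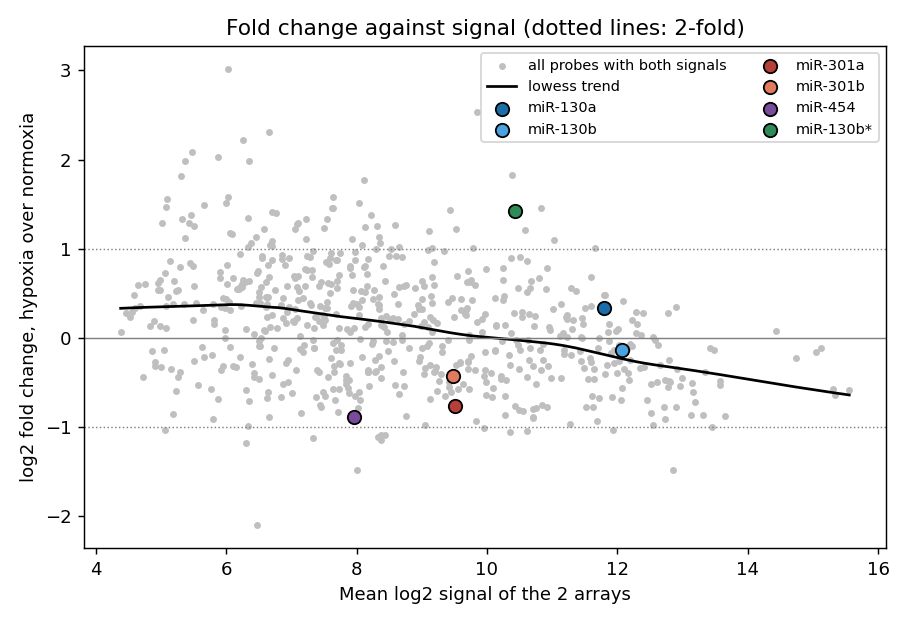
log2 fold change of hypoxia over normoxia against the mean log2 signal of the 2 arrays for the 663 probes with both signals (grey), with the lowess trend (line), 2-fold (dotted) and the family members with miR-130b* in color. hsa-miR-454 lies 1.11 below the line and hsa-miR-130a 0.53 above it.

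The summed signal of the family was 9782 under normoxia and 9461 under hypoxia, a log2 ratio of -0.048. This sum is mostly that of the bright probes, since hsa-miR-130a and hsa-miR-130b made up 78.4% of it under normoxia and 85.6% under hypoxia. The sum of these 2 was 7666 and 8101, and that of hsa-miR-301a, hsa-miR-301b and hsa-miR-454 was 2116 and 1360 (log2 ratio -0.64). The sign of the family sum was not stable, being 0.15 on the log2 scale after scaling on the total signal and 0.12 with the trend removed.

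Among the other strands of the same hairpins, both passenger strands with a signal were higher under hypoxia, on the authors' scaling and in the alternatives tried. Their RefSeq sequences (GRCh38.p14; chr11:57641212-57641233 and chr22:21653316-21653336, plus strand) are shown because their seeds, bases 2 to 8 in capitals, are not that of the guides.
miR-130a*: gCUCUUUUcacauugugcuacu
miR-130b*: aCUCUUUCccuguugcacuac

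miR-130b*, reported to target the growth factor CSF1, had 844 under normoxia and 2263 under hypoxia and was 2.68-fold higher. Since the signal of its guide hsa-miR-130b was 0.910-fold, the ratio of passenger to guide signal went from 0.188 to 0.554, a change of 1.56 on the log2 scale (2.95-fold). This ratio is taken within each array and does not depend on the scaling between arrays, and the change was 1.35 relative to the trend and 1.34 with quantile-normalized signals. miR-130a* had 48.7 and 86, and its ratio to hsa-miR-130a went from 0.0153 to 0.0214 (0.48 on the log2 scale, and -0.077 relative to the trend). miR-454* was listed at 0 on both arrays. miR-130b* was known to be upregulated when it was chosen for this comparison, so its ratio is a description.

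Over all 59 hairpins whose passenger and guide strands had a signal on both arrays, the ratio was over 2-fold higher under hypoxia in 9, or 15.3%, and relative to the trend in 7, with 6 in both counts. The median change was 0.23, with a middle range (25th to 75th percentile) from -0.37 to 0.78. By the size of this increase miR-130b ranked 3 of 59, and 2 of 59 relative to the trend, where the median was -0.053. miR-130a ranked 22 of 59, inside the middle range.

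**Figure D4:**
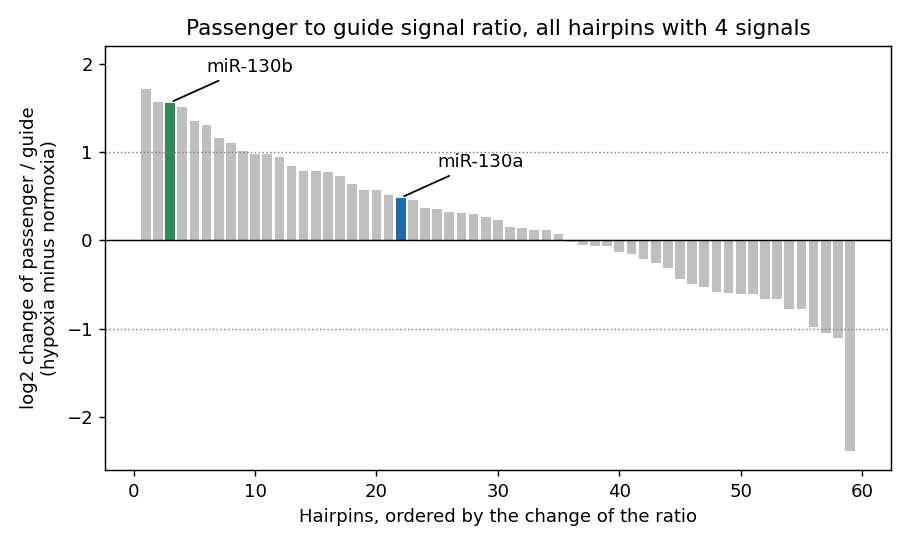
Change of the passenger to guide signal ratio from normoxia to hypoxia (log2, vertical axis) for the 59 hairpins with all 4 signals, ordered by size, with 2-fold marked by dotted lines. miR-130b (green, 1.56) is at rank 3 and miR-130a (blue, 0.48) lies at rank 22.

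The precursor probes of the family were dim or listed at 0, and the array had none named for miR-301b or miR-454. The precursor of miR-130a had 0 under normoxia and 21.3 under hypoxia, that of miR-130b had 0 and 37.3, and that of miR-301a was listed at 0 on both arrays. Among the 664 probes listed at 0 on the normoxia array, 174 gave a hypoxia signal, with a median of 27.2. The precursor of miR-130a lay below that value and that of miR-130b above it. The precursor signals therefore gave no fold change to set beside those of the mature strands.

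The closest relatives by seed are miR-19a and miR-19b, and miR-148a, miR-148b and miR-152. miR-19a lies in the miR-17-92 cluster (MIR17HG), and the miR-19b sequence occurs both there and in MIR106AHG on chromosome X. In both groups the seed is offset by 1 base and overlaps in 6 bases. An example of each shows the offset, with bases 2 to 8 in capitals (RefSeq, GRCh38.p14; chr13:91350939-91350961, plus strand, and chr7:25949922-25949943, minus strand).
miR-19a: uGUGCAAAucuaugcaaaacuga
miR-148a: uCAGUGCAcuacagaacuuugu

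miR-19a had 744 under normoxia and 379 under hypoxia (1.96-fold lower), and miR-19b, an oncogenic member of its cluster, had 5604 and 2748 (2.04-fold lower). Both were further down than hsa-miR-301a and hsa-miR-454 as deposited, whereas relative to the trend miR-19a (-1.08) and miR-19b (-0.82) were both above hsa-miR-454 (-1.11). miR-148a had 866 and 984, miR-148b 384 and 373, and miR-152 355 and 273, with log2 fold changes of 0.18, -0.041 and -0.38, and miR-148b was higher (0.16) after scaling on the total signal. As deposited, the miR-130, miR-301 and miR-454 family ran from -0.89 to 0.34, which covered the values of the miR-148 group but not those of miR-19. None of these differences between families was tested.

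For each member, the mature miRNAs with the most similar pair of signals were found by the distance of their 2 log2 signals. For hsa-miR-130a the nearest was miR-1300 (3187 and 3901, distance 0.041), and for hsa-miR-130b it was miR-197 (4301 and 4071, 0.063). Nearest to hsa-miR-301a were miR-500* (860 and 563) and miR-142-5p (921 and 621), and to hsa-miR-301b miR-361-3p (816 and 662). For hsa-miR-454 these were miR-194 (339 and 197) and miR-100 (314 and 200). No member was among the 2 nearest of another, hsa-miR-301a and hsa-miR-301b included. Likeness over 2 arrays rests on 2 values per miRNA.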

How the data were processed

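The authors labeled total RNA of MKN1 cells with biotin, hybridized it to GenoSensor human miRNA arrays (probes of miRBase v13) and read the spots with GeneSpring GX (its version: not given in the sources used here). They normalized the signals on global signal intensity. What was deposited are normalized signal intensities, linear and not log transformed, for 1 array per condition. Both deposited tables held the same values (2658 of 2658, with blanks read as 0). Columns with the authors' own ratios and test p-values were not used.

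Fold changes (hypoxia over normoxia) were computed here for the 663 probes with both signals, with no pseudocount or filter, and read against 2-fold as in the study's methods. No fold change was given for a probe at 0. No test was made with 1 array per condition. The trend was fitted by lowess (span 0.4) and checked on simulated data. Alternatives were median centring, 75th percentile and total signal scaling, quantile normalization, trend removal, pseudocounts of 16 and 50, the other deposited table, a filter on dim members and a threshold of 1.5-fold. The text names the 5 members, their passenger strands and precursors, 5 seed relatives, cell type markers, miR-210 and the 2 nearest mature miRNAs of each member. Another list that was set is not reported here. Members and lists were chosen with earlier results of these data known. Sequences, positions and host genes are those of RefSeq (GRCh38.p14); the arrays name no build. Python 3.11.15, numpy 2.4.6, pandas 2.3.3, statsmodels 0.14.6 and matplotlib 3.10.9 were used.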

Additional observations from a re-analysis of the deposited data

Results flagged for a closer look

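Precursor probes of 2 family hairpins had a signal under hypoxia and were listed at 0 under normoxia, the control condition. The precursor of miR-130a had 21.3, close to the lowest listed signal of 20. That of miR-130b had 37.3, above 27.2, the median hypoxia signal of probes listed at 0 under normoxia that gave one. Over the whole array, 88 of the 296 precursor probes listed at 0 on the normoxia array gave a hypoxia signal, and the part of this shift in the values of the 2 precursors was not tested.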

How the results depend on the processing

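No paired analysis was possible because each condition had 1 array. No spread between replicates was to be had, so a value was taken to hold where it kept its direction and its side of 2-fold, and for values that moved the cause was not tested, apart from thresholds and left-out members. In 8 alternatives, hsa-miR-130a (0.20 to 0.54), hsa-miR-301a (-0.90 to -0.56) and hsa-miR-301b (-0.56 to -0.23) held. Of these alternatives, 1 was the other deposited table, whose values were the same and could not differ. hsa-miR-130b reversed to 0.063 after total signal scaling, 0.029 with quantile normalization and 0.096 relative to the trend. The count of members over 2-fold went from 0 to 1 after median centring, quantile normalization and trend removal, the member being hsa-miR-454. It went to 2 at a threshold of 1.5-fold, both lower, against 12.5% of the 663 probes lower by that size. The count of lower members was 3 or 4. Shares over all probes were counted as deposited only, so the counts after rescaling have no share beside them. The log2 ratio of the summed signal, -0.048 as deposited, was 0.15 after total signal scaling, 0.072 after quantile normalization, 0.12 with the trend removed, 0.022 without hsa-miR-130b, 0.011 without hsa-miR-301a and -0.28 without hsa-miR-130a. The passenger to guide ratio of miR-130b held in 5 of 5 alternatives (1.34 to 1.56), the other deposited table with its same values included.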

Other observations

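Besides miR-130b, 8 hairpins had a passenger to guide ratio over 2-fold higher under hypoxia. They were miR-181a (log2 change 1.71), miR-18b (1.56), miR-15b (1.51), miR-221 (1.35), miR-18a (1.30) and miR-744 (1.16), besides miR-32 (1.10) and miR-30a (1.02). Relative to the trend, miR-221 (0.90), miR-32 (0.83) and miR-30a (0.61) were under 2-fold, and miR-877 was over it (1.17). For miR-181a* the signals were low, with 29.3 under normoxia and 70 under hypoxia, whereas miR-15b* had 166 and 358. In miR-18a, miR-18b, miR-221 and miR-30a, the guide was lower under hypoxia by over 1.5-fold. In miR-130b the guide differed little and the passenger strand made up most of the change. As deposited, the passenger strand also made up most of the change in miR-744, miR-15b, miR-181a and miR-32, so this was not particular to miR-130b. Unlike the ratio, this split between strands depends on the scaling between arrays. For miR-32 it was close, with log2 fold changes of 0.64 for the passenger strand and -0.46 for the guide. The hairpins listed here were named after their values were seen.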
